A study of Mus musculus with 12 samples.

Results

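The microRNAs (miRNAs) of Pdx1-Cre labelled cells sorted from mouse embryos at E10.5 (E, embryonic day) were compared with those of Foxa2-CreER labelled cells sorted at E8.5. Libraries were taken by the stage in their titles, which gave 3 libraries at E10.5 and 3 at E8.5, 6 of the 12 libraries of the series. All 1053 miRNA entries of the count table were described, 633 of them mature miRNAs and 420 precursors, which are entries under a hairpin's name. Reads of at most 36 bases were kept, so precursor entries count short reads and not whole hairpins. The series profiled small RNA from endoderm to pancreatic progenitors at 4 stages. The shallow E9.5 libraries and the E11.5 libraries entered the choice of entries tested, the scaling and the estimate of spread, but not the comparison itself. With them 571 entries were tested, and with only the 6 libraries 444.

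The E8.5 cells carried a Foxa2mcm knock-in allele, a tamoxifen-inducible Cre recombinase made wherever Foxa2 is active, and a Rosa26 tdTomato reporter that stays on once Cre has acted. The pregnant females received tamoxifen, and tdTomato+ cells were sorted from whole embryos. Foxa2 also marks the node, notochord and floor plate, so the label covers endoderm without being limited to it. The E10.5 cells carried a transgenic Pdx1-Cre and the same reporter, and tdTomato+ cells were sorted from the dissected trunk. Pdx1 is active in the pancreatic buds and in the neighbouring duodenum and posterior stomach. According to the study's methods, sires of the lineage-tracing crosses carried an eGFP allele in place of mir-302, and the mir-302 genotype of the embryos behind each library is not given in the sources used here. Cre driver, tamoxifen, dissected region and the number within the library names all changed together with stage and cannot be told apart from it. What the number in the names stands for is not stated. Nothing in the labels says whether the 3 libraries of a stage came from separate embryos or litters, so p-values measure only the spread between these libraries.

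A miRNA is cut from a hairpin precursor, and 1 strand of the resulting duplex guides Argonaute to messenger RNAs. Bases 2 to 8 of the guide, the seed, do most of the target recognition, so miRNAs of different loci that share a seed form 1 family. The miR-302 and miR-290 clusters are known from pluripotent cells and the early embryo, let-7 from differentiating cells, miR-375 and miR-7 from pancreatic endocrine cells and their progenitors, and miR-122 from hepatocytes.

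The sequences below are mature arms from families and clusters with stage differences, from RefSeq on GRCm38, with the seed in capitals. Of the arms shown, miR-302c-3p, miR-367-3p and miR-25-3p did not themselves pass the test between stages given below. The main arms of miR-122, miR-375 and miR-302a had no matched RefSeq sequence and are not shown. The first set shows that arms of the miR-302 cluster on chromosome 3 and of the miR-290 cluster on chromosome 7 share 1 seed, while miR-302c-3p begins 1 base further on.
miR-302b-3p: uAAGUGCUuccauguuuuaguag
miR-302d-3p: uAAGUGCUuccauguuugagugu
miR-294-3p: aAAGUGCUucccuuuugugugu
miR-295-3p: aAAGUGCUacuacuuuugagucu
miR-302c-3p: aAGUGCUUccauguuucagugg

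The 5p arms of miR-290a, miR-292a and miR-293 form a separate family, shown because they held most of the cluster's counts at E8.5. miR-291a-5p, miR-291b-5p and miR-295-5p of the cluster carry other seeds.
miR-290a-5p: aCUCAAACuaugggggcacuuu
miR-292a-5p: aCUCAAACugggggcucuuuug
miR-293-5p: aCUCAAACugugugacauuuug

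The miR-7 pair is shown because both members rose, the miR-10 pair because both fell, and the miR-92a family because its leading member was the most abundant mature entry at E8.5.
miR-7a-5p: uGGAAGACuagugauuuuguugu
miR-7b-5p: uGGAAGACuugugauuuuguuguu
miR-10a-5p: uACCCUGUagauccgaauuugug
miR-10b-5p: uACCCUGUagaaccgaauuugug
miR-92a-3p: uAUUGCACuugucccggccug
miR-25-3p: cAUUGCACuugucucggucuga
miR-367-3p: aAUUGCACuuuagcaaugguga

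Library totals were 519989, 386094 and 594224 counts at E8.5 and 267978, 133435 and 241020 counts at E10.5. Between 633 and 754 entries had at least 1 count in an E8.5 library and between 436 and 548 in an E10.5 library. Levels below are in CPM, counts relative to the library total after TMM scaling, which adjusts totals for composition, given for replicates 1, 2 and 3 of E8.5 and then of E10.5, and 3 counts summed over a stage correspond to 1.82 CPM at E8.5 and 4.75 CPM at E10.5. Spearman correlations over entries were 0.678 to 0.720 within E8.5, 0.562 to 0.604 within E10.5 and 0.529 to 0.590 between stages. The first principal component held 45.8% of the variance and separated the stages without overlap.

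Precursor entries held 10.4% to 10.6% of counts at E8.5 and 12.7% to 13.6% at E10.5. All 3 E10.5 libraries lay above the E8.5 libraries (two-sided exact permutation test, p = 0.1, the smallest that 3 against 3 can give). The number of entries that together held 50% of counts was 14, 14 and 12 at E8.5 and 12, 8 and 12 at E10.5 (two-sided exact permutation test, p = 0.3).

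Of the 10 most abundant mature entries at each stage, 6 were shared, among them miR-92a-3p, miR-182-5p, miR-183-5p, miR-375-3p, miR-379-5p and miR-26a-5p. At E8.5 the list was led by miR-92a-3p of the miR-17-92 clusters, known for promoting proliferation, with 25.0% ± 1.7 (SD, n = 3) of counts. It also held miR-302b-3p at 3.11% ± 0.81, miR-10a-5p at 2.24% ± 0.60, miR-1a-3p at 1.74% ± 1.11 and miR-10b-5p at 1.67% ± 0.51 (SD, n = 3). At E10.5 the first place went to miR-122-5p with 8.70% ± 2.36 of counts, ahead of miR-92a-3p with 7.35% ± 1.16 and miR-375-3p with 6.40% ± 1.08 (SD, n = 3). The other newcomers at E10.5 were miR-7a-5p at 5.36% ± 0.59, miR-409-3p at 2.59% ± 0.19 and miR-382-5p at 1.64% ± 0.13 (SD, n = 3).

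**Figure D1:**
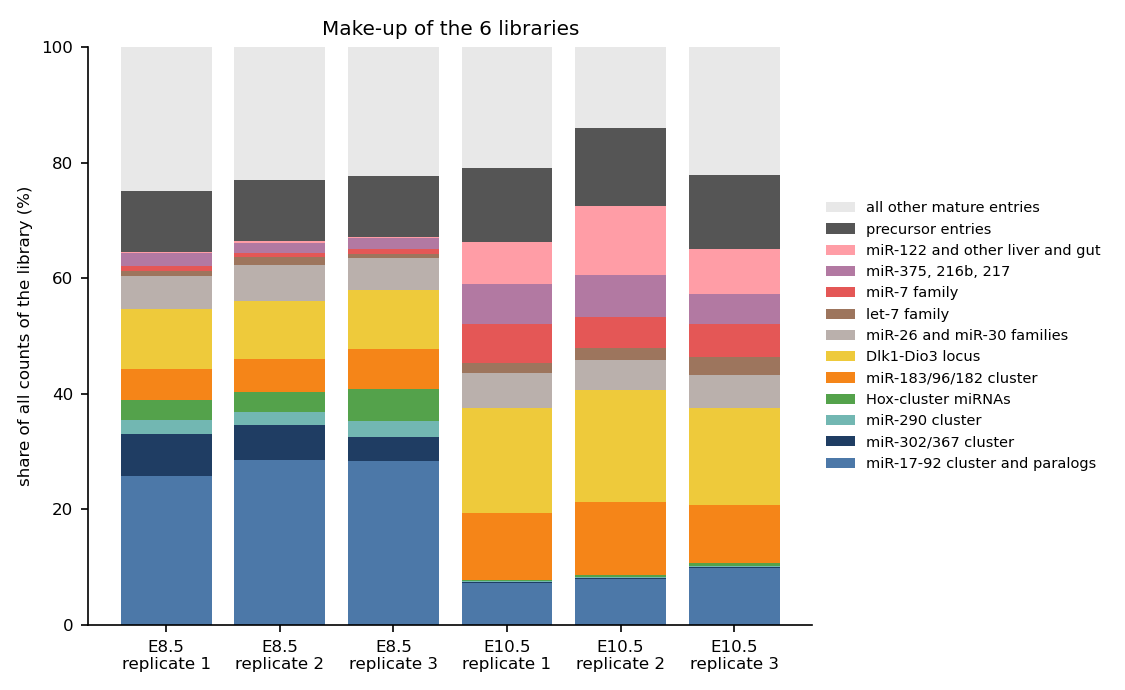
Share of all counts of each of the 6 libraries (y axis, %) held by 11 groups of mature miRNAs, by precursor entries and by all other mature entries. The miR-302, miR-290 and Hox-cluster bands of the 3 E8.5 libraries shrink to thin lines in the 3 E10.5 libraries, while the miR-7, miR-375 and miR-122 bands widen.

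Of 571 entries tested with edgeR's quasi-likelihood test, 49 differed between the stages at an adjusted p under 0.05 (8.58%), 25 higher at E10.5 (4.38%) and 24 lower (4.2%). Such entries are said to have risen or fallen. The 3 libraries of one stage lay wholly above or below those of the other in 209 entries tested (36.6%), 74 higher and 135 lower at E10.5, and in 48 of the 49 called entries. Calls came mostly from abundant entries. Among 153 entries at 1000 CPM or more in the higher stage 37 were called (24.2%), against 12 of 286 between 100 and 1000 CPM (4.20%) and none of 132 below 100 CPM. The median standard error of the log2 fold change was 0.75 in the first class and 2.47 in the last, so differences of rare miRNAs were often not detectable at this depth. The median log2 fold change over all tested entries was −0.26, against which the values below can be read. The count and its split depended on the fit. DESeq2 called 116 entries (52 higher, 64 lower), limma voom 108 (39 and 69), the fit of only the 6 libraries 100 (37 and 63) and the fit without the E9.5 libraries 89 (45 and 44). Each E8.5 library left out alone also moved the count by over 1.5 times, to 31 without replicate 1, 30 without replicate 2 and 27 without replicate 3.

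**Figure D2:**
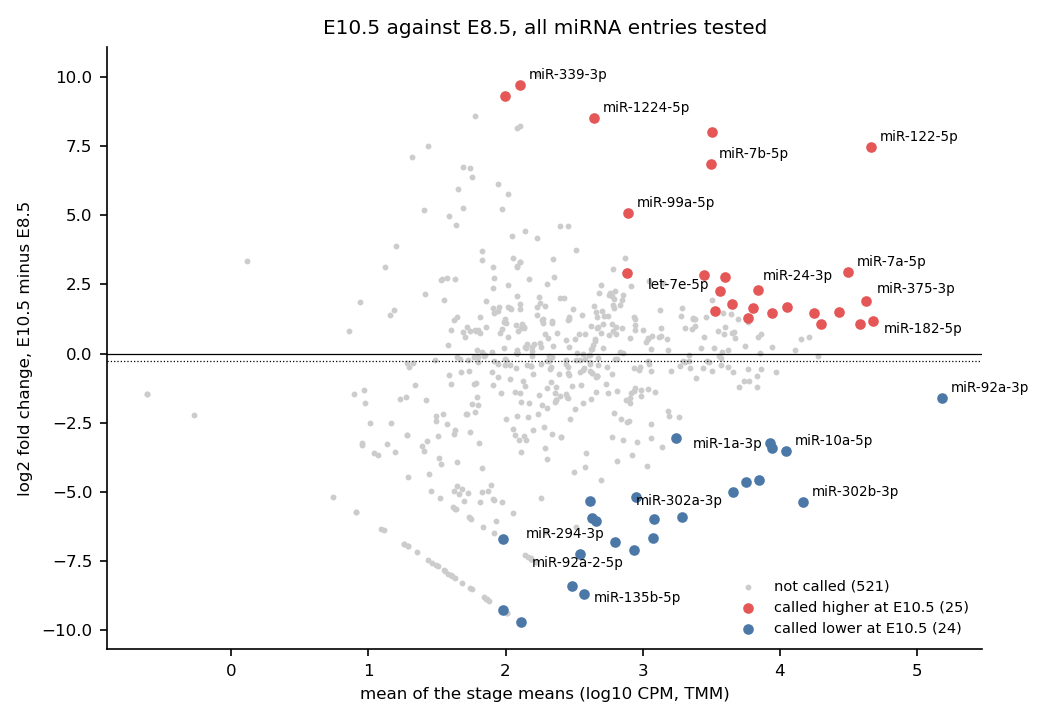
Log2 fold change (E10.5 minus E8.5) against the mean of the stage means on a log10 CPM axis for tested entries, leaving out 1 entry at 0 in all 6 libraries. Red points are the 25 called higher, blue points the 24 called lower and grey points the 521 drawn that were not called, and the dotted line is the median of −0.26. Called entries of small fold size sit at the right, where counts are high.

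In the miR-302 cluster, which includes miR-367, 4 of 8 members tested fell, against 4.2% of all entries tested, and none rose. All 8 had a negative log2 fold change, with a median of −4.89, also with miR-367-3p set at its bound. In 7 of the 8 the E10.5 libraries all lay below the E8.5 libraries, against 135 of all 571 entries tested. The cluster's summed level was 65799, 60453 and 36092 CPM at E8.5 and 1658, 1944 and 1823 CPM at E10.5, or 5.83% ± 1.56 and 0.174% ± 0.016 of counts (SD, n = 3). Its hairpins lie at chr3:127545228-127545807 on the plus strand, opposite an intron of Larp7. The leading arm, miR-302b-3p, stood at 35746, 30651 and 20190 CPM at E8.5 and at 191, 1348 and 560 CPM at E10.5. It fell by 5.37 ± 0.61 on the log2 scale (SE, adjusted p = 1.52e-06), and no E10.5 library came near any E8.5 library. The second arm by level, miR-302d-3p, was at 16270, 16003 and 8488 CPM and then 295, 372 and 1023 CPM, and fell by 4.59 ± 0.75 (adjusted p = 0.000164). In both arms E8.5 replicate 3 was the lowest of its stage.

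The third arm, miR-302a-3p, went from 10172, 11151 and 5335 CPM to 421, 190 and 212 CPM and fell by 5.01 ± 0.76 on the log2 scale (adjusted p = 7.29e-05). Its partner miR-302a-5p fell too, from 633 to 1240 CPM at E8.5 to 8.64 to 19.1 CPM at E10.5 (adjusted p = 0.0175). That call was lost without any 1 of the 6 libraries (adjusted p = 0.0607 to 0.122), while the calls of the 3 leading 3p arms held in every leave-one-out fit. The remaining members did not pass the test, with adjusted p of 0.107 for miR-302c-3p, 0.208 for miR-302b-5p, 0.911 for miR-302d-5p and 0.0655 for miR-367-3p. At E10.5 miR-367-3p had no count in any library against 211, 309 and 98.9 CPM at E8.5, which makes it at least 39.4-fold lower against a floor of 3 counts over the stage. miR-302d-5p overlapped because of 502 CPM in E10.5 replicate 1. The precursor mir-302b fell from 3349, 2544 and 1164 CPM to 26.8, 25.9 and 15.7 CPM (log2 fold change −6.68 ± 1.26, adjusted p = 0.000949). The precursor mir-302a fell from 3252 to 4285 CPM to 43.1 to 99.6 CPM (adjusted p = 0.0102), so precursor and mature entries of these hairpins moved the same way.

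In the miR-290 cluster, at chr7:3218626-3220841 on the plus strand, 6 of 11 members tested fell (54.5%, against 4.2% of all entries tested) and none rose. In all 11 the 3 E10.5 libraries lay below the 3 E8.5 libraries, against 135 of all 571 entries tested. The median log2 fold change of the 11 was −5.32. The summed level was 22764, 23222 and 22603 CPM at E8.5, and 728, 1676 and 1372 CPM at E10.5. Past miR-290a, the hairpins with a position in the annotation overlap exons of Nlrp12 on the opposite strand. The most abundant member, miR-292a-5p, was at 10858, 10584 and 11247 CPM and then at 337, 164 and 792 CPM, and fell by 4.65 ± 0.73 on the log2 scale (adjusted p = 0.000122). miR-294-3p, which carries the miR-302 seed, went from 1042, 1162 and 1521 CPM to 8.64 to 11.8 CPM, and fell by 6.80 ± 1.56 (adjusted p = 0.00578). These calls held without any 1 of the 6 libraries.

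miR-293-5p fell from 1628 to 1816 CPM to 8.64 to 115 CPM (adjusted p = 0.0155), a call lost without replicate 3 of E8.5 and without replicate 2 or 3 of E10.5 (adjusted p = 0.0603 to 0.0771). miR-295-3p had 1150 counts over the E8.5 libraries and 3 over the E10.5 libraries, a ratio of 147 (95% exact interval 50.2 to 714, counting error only). Its adjusted p was 0.0219 with all libraries and 0.0790 to 0.106 in the 5 leave-one-out fits that lost it, all but that without E10.5 replicate 3. miR-290a-5p (adjusted p = 0.0299) and miR-291a-5p (adjusted p = 0.0413) lost their calls in all 6, with adjusted p of 0.0717 to 0.128 and 0.0646 to 0.187. The precursor mir-295 was at 365, 252 and 154 CPM at E8.5 and 0 in every E10.5 library, at least 52.8-fold lower (adjusted p = 0.0489, and 0.0977 or more in all 6 leave-one-out fits). In miR-292a-3p and miR-291b-5p, which did not pass the test, E10.5 replicate 2 stood apart at 709 and 700 CPM where the other E10.5 libraries were at 7.66 to 23.5 CPM.

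Summed over seeds, the family AAGUGCU, which joins miR-302b-3p and miR-302d-3p with miR-294-3p, miR-295-3p and miR-291a-3p, held 6.68%, 5.44% and 4.02% of mature counts at E8.5 and 0.0556%, 0.174% and 0.195% at E10.5. It fell by 5.08 ± 0.48 on the log2 scale (adjusted p = 2.80e-09 over 308 families). The 5p family CUCAAAC of miR-290a, miR-292a and miR-293 fell by 4.73 (adjusted p of at most 0.000676 in leave-one-out fits). The shorter motif AAGUGC within bases 2 to 8 was searched on the guide strand of the 319 tested mature entries with a sequence and found in 11 (3.45%), the 5 arms above and 6 of the miR-17-92 clusters and paralogs. All 11 had a negative log2 fold change, 4 fell and none rose, and their median was −4.59 against −0.20 over all 319.

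The miR-17-92 cluster and its paralogs, growth-promoting miRNAs of many dividing tissues, made up 27.6% ± 1.6 of counts at E8.5 and 8.37% ± 1.31 at E10.5 (SD, n = 3). The list held 1 arm of each hairpin, and minor arms outside the list are given below. Of its 12 members tested only miR-92a-3p was called (8.33%, close to the 8.58% of all entries tested). It stood at 208380, 260845 and 224468 CPM at E8.5 and at 65848, 80606 and 81668 CPM at E10.5, and fell by 1.60 ± 0.19 on the log2 scale (adjusted p = 1.74e-06). The other 11 were not called, although all had negative log2 fold changes. Between stages 11 of the 12 members did not overlap, against 36.6% of all entries tested. Among those not called, miR-25-3p went from 7806 to 9950 CPM to 3998 to 5816 CPM (adjusted p = 0.213). miR-93-5p went from 5848 to 8256 CPM to 3218 to 4001 CPM (adjusted p = 0.296). miR-20a-5p was at 1489 to 1569 CPM and then at 264, 1192 and 462 CPM (adjusted p = 0.531). From the X-linked paralog, the minor arm miR-92a-2-5p fell from 1185, 2487 and 1498 CPM to 3.83, 8.64 and 23.5 CPM (log2 fold change −7.10 ± 1.48, adjusted p = 0.00222). Its neighbour miR-363-5p had 946 counts at E8.5 and 1 at E10.5 (adjusted p = 0.0328), and its precursor mir-92a-2 fell from 2697 to 3459 CPM to 251 to 557 CPM (adjusted p = 0.0274). The last 2 calls were lost in all 6 leave-one-out fits, at adjusted p of 0.0526 to 0.114 and 0.0541 to 0.120. The miR-15/16 family, which has another seed and is known for restraining the cell cycle, had no call among 5 tested. Its median log2 fold change was −1.43, with miR-16-5p at 5128 to 6497 and then 2869 to 4409 CPM.

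The Hox-cluster miRNAs are transcribed from between the Hox genes that pattern the body axis. Of 5 tested 2 fell (40.0%, against 4.2% of all entries tested) and none rose, with a median log2 fold change of −3.19. miR-10a-5p, encoded at chr11:96317165-96317274, was at 16766, 19345 and 25324 CPM at E8.5 and at 1198, 1771 and 2320 CPM at E10.5. It fell by 3.54 ± 0.53 on the log2 scale (adjusted p = 6.18e-05). miR-10b-5p, encoded at chr2:74726070-74726137 within introns of Hoxd3 and Hoxd4, was at 12569, 13661 and 19448 CPM and then at 678, 2186 and 2011 CPM. It fell by 3.23 ± 0.85 (adjusted p = 0.0170), a call lost without E8.5 replicate 3 (adjusted p = 0.0936) or E10.5 replicate 1 (adjusted p = 0.0646). Its precursor mir-10b fell from 1559, 2367 and 3274 CPM to 38.3, 51.8 and 23.5 CPM (adjusted p = 0.00995, and 0.0559 without E8.5 replicate 3). Unlike the miR-302 arms, both miR-10 members were highest in E8.5 replicate 3. miR-615-3p (1053 to 2656 and then 30.6 to 431 CPM, adjusted p = 0.0787) and miR-196a-5p (adjusted p = 0.720) did not pass the test. The pair's seed family ACCCUGU fell by 3.37 ± 0.48 (adjusted p = 4.62e-06) and held in every leave-one-out fit.

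**Figure D3:**
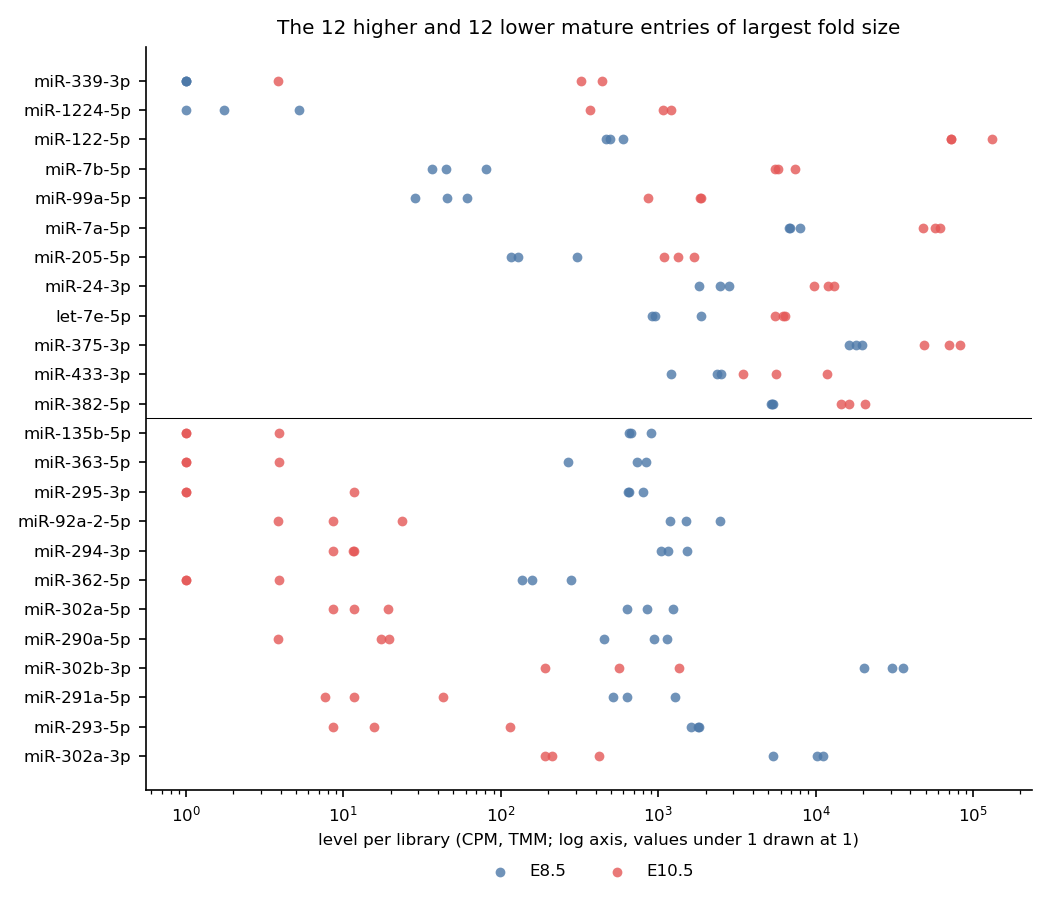
Level in each library (CPM on a log axis, values under 1 drawn at 1) of the 12 mature entries that rose and the 12 that fell with the largest fold size among those at 100 CPM or more in the higher stage. Blue points are the 3 E8.5 libraries and red points the 3 E10.5 libraries, and in each entry they do not overlap, which was a condition of the choice.

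miR-122-5p, the main miRNA of hepatocytes, had the largest log2 fold change of the mature entries called higher at 1000 CPM or more. It was at 597, 494 and 465 CPM at E8.5 and at 72380, 131533 and 72156 CPM at E10.5, and rose by 7.47 ± 0.38 on the log2 scale (adjusted p = 8.37e-13). Its precursor mir-122 rose from 40.0, 18.2 and 14.5 CPM to 6521, 9712 and 2802 CPM (log2 fold change 8.01 ± 1.00, adjusted p = 5.20e-06). In the list of liver and gut miRNAs miR-122-5p was the only call among 4 tested (25.0%, against 8.58% of all entries tested). miR-148a-3p, also abundant in liver, was at 1926, 1297 and 1626 CPM and then at 2550, 5357 and 1019 CPM (adjusted p = 0.576). miR-194-5p and miR-192-5p, an intestinal and hepatic pair, reached at most 486 CPM and 126 CPM at E10.5 (adjusted p = 0.186 and 0.644). Because cells were pooled in each library, more cells of a type cannot be told apart from more of a miRNA per cell, here and in every result, and the part of any hepatic cells in the sort was not tested.

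miR-375-3p, abundant in pancreatic endocrine cells and present in gut endocrine cells, stood at 19653, 17975 and 16321 CPM at E8.5 and at 70167, 82853 and 48812 CPM at E10.5. It rose by 1.90 ± 0.25 on the log2 scale (adjusted p = 1.31e-05), and the lowest E10.5 library was well above the highest E8.5 library. The other miRNAs of the pancreas list mark acinar cells later in development. miR-216b-5p was at 1.74, 0 and 69.8 CPM and then at 479, 181 and 0 CPM (adjusted p = 0.456), and miR-217-5p had no count at E8.5 and 0, 8.64 and 7.84 CPM at E10.5, too few to be tested. Of the markers of the labelled organ, then, miR-375-3p was high at E10.5 and already among the 10 most abundant mature entries at E8.5.

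Both miR-7 members, expressed in endocrine and neuroendocrine lineages, rose. miR-7a-5p went from 8010, 6861 and 6795 CPM to 61896, 57035 and 48165 CPM, a log2 fold change of 2.95 ± 0.28 (adjusted p = 1.31e-07). miR-7b-5p, from its own locus at chr17:56242988-56243098 between genes, went from 80.0, 36.4 and 45.1 CPM to 7352, 5754 and 5542 CPM, a log2 fold change of 6.84 ± 0.76 (adjusted p = 1.32e-06). No library of one stage overlapped the other in either member, and miR-7a-5p remained the larger part of the family at both stages. The precursors mir-7a-1, in an intron of Hnrnpk, and mir-7a-2, between genes on chromosome 7, rose by 2.77 ± 0.54 and 2.86 ± 0.68 (adjusted p = 0.00118 and 0.00785), the latter call lost without E8.5 replicate 3 (adjusted p = 0.0653). The seed family GGAAGAC held 0.884% ± 0.115 of mature counts at E8.5 and 6.85% ± 0.77 at E10.5 (SD, n = 3) and rose by 3.11 ± 0.28 (adjusted p = 9.38e-10).

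The let-7 family targets Lin28 and Hmga2 and accumulates as tissues differentiate. Of 9 members tested 2 rose (22.2%, against 4.38% of all entries tested) and none fell, with a median log2 fold change of 0.95. let-7e-5p was at 950, 1884 and 908 CPM and then at 5541, 6351 and 6204 CPM, and rose by 2.27 ± 0.46 on the log2 scale (adjusted p = 0.00192). let-7c-5p was at 1420, 2297 and 1444 CPM and then at 4174, 5910 and 4833 CPM, and rose by 1.53 ± 0.43 (adjusted p = 0.0249). The let-7c-5p call was lost without any 1 of the E8.5 libraries or without E10.5 replicate 2 (adjusted p = 0.0524 to 0.138). let-7f-5p did not overlap between stages (1040 to 1590 and then 2493 to 4363 CPM) but missed the threshold (adjusted p = 0.110). let-7a-5p, let-7b-5p, let-7d-5p, let-7g-5p, let-7i-5p and miR-98-5p overlapped between stages (adjusted p = 0.185 to 0.994). Their fold changes ran from −0.37 for let-7i-5p to 0.98 for let-7b-5p. Summed over the seed GAGGUAG, the 9 entries held 1.04%, 1.48% and 0.867% of mature counts at E8.5 and 2.09%, 2.27% and 3.55% at E10.5. The sum rose by 1.36 ± 0.29 (adjusted p = 0.00146) and held in every leave-one-out fit.

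The miR-99/100 and miR-125 miRNAs share transcripts with let-7 genes. Of 5 tested 2 rose (40.0%, against 4.38% of all entries tested) and none fell. miR-99a-5p rose from 45.2, 28.6 and 61.1 CPM to 1872, 1832 and 858 CPM (log2 fold change 5.06 ± 1.13, adjusted p = 0.00469). miR-99b-5p rose from 4191, 3451 and 2582 CPM to 10028, 5659 and 9069 CPM (log2 fold change 1.28 ± 0.39, adjusted p = 0.0451). This call was lost in all 6 leave-one-out fits (adjusted p = 0.0592 to 0.186) and in 5 of 12 other settings (adjusted p = 0.00440 to 0.104 over the 12). miR-125a-5p, from the same transcript as let-7e, was at 2135 to 3516 CPM and then at 2488 to 7524 CPM (adjusted p = 0.359). miR-125b-5p was at 124 to 435 CPM and then at 579 to 1359 CPM (adjusted p = 0.184).

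Among the miR-23/27/24 clusters miR-24-3p rose, from 2463, 1824 and 2798 CPM to 13015, 12002 and 9830 CPM (log2 fold change 2.30 ± 0.37, adjusted p = 0.000164). The other 4 members tested had positive log2 fold changes of 1.32 or more and did not overlap between stages. None of the 4 was called (adjusted p = 0.122 to 0.158 for miR-23b-3p, miR-27b-3p and miR-27a-3p). Over all entries tested 8.58% were called and 36.6% did not overlap. The miR-181 members, known from lymphocytes and many other tissues, were not called singly (4 tested, median log2 fold change 2.19). Their seed family ACAUUCA held 0.0769% ± 0.0231 of mature counts at E8.5 and 0.334% ± 0.187 at E10.5 (SD, n = 3) and rose by 2.24 ± 0.65 on the log2 scale (adjusted p = 0.0208). That call was lost in 4 of 6 leave-one-out fits, namely without replicate 1 or 2 of E8.5 and without replicate 1 or 3 of E10.5 (adjusted p up to 0.170).

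Epithelial miRNAs of the miR-200 family with miR-203 and miR-205, known for keeping cells epithelial, had 2 members that rose among 7 tested. That is 28.6%, against 4.38% of all entries tested. None fell, and all 7 had positive log2 fold changes. miR-200b-3p was at 2514, 3357 and 3304 CPM and then at 10924, 7439 and 10524 CPM (log2 fold change 1.65 ± 0.42, adjusted p = 0.0121). miR-205-5p was at 304, 117 and 129 CPM and then at 1681, 1089 and 1329 CPM (log2 fold change 2.89 ± 0.89, adjusted p = 0.0451). The first call was lost without any 1 of the E8.5 libraries or E10.5 replicate 3 (adjusted p = 0.0526 to 0.0929). The second was lost in all 6 leave-one-out fits (adjusted p = 0.0806 to 0.177) and in 4 of 12 other settings (adjusted p = 6.12e-05 to 0.0857 over the 12). miR-200c-3p, the most abundant of the family at E8.5 (4631 to 6411 CPM), overlapped at E10.5 (6074 to 9708 CPM, adjusted p = 0.314). miR-203-3p (adjusted p = 0.0655) and miR-429-3p (adjusted p = 0.404) did not overlap but did not pass the test.

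The miR-183 cluster, with miR-96 and miR-182, best known from sensory organs, was abundant at both stages with 5.95% ± 0.85 and 11.4% ± 1.3 of counts (SD, n = 3). miR-182-5p rose from 27160, 30503 and 30414 CPM to 68938, 76528 and 54652 CPM (log2 fold change 1.18 ± 0.21, adjusted p = 0.000361). miR-183-5p rose from 20930, 25233 and 28938 CPM to 48621, 68760 and 39856 CPM (log2 fold change 1.07 ± 0.24, adjusted p = 0.00548). This call was lost without E8.5 replicate 2 (adjusted p = 0.0814) or E10.5 replicate 2 (adjusted p = 0.116). miR-96-5p, at 174 to 435 CPM and then at 1133, 933 and 169 CPM, overlapped (adjusted p = 0.485). The precursor mir-183 rose from 8184, 10350 and 9874 CPM to 26715, 29498 and 22242 CPM (log2 fold change 1.47 ± 0.29, adjusted p = 0.00144).

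The imprinted Dlk1-Dio3 locus on chromosome 12, whose miRNAs are made from the maternal allele, gave 10.2% ± 0.2 of counts at E8.5 and 18.1% ± 1.2 at E10.5 (SD, n = 3). Of 66 mature members tested, 5 rose and none fell. This is 7.58% called, below the 8.58% of all entries tested, so the share called does not set the locus apart. Of the 66, 47 had a positive and 18 a negative log2 fold change, with a median of 0.73. miR-379-5p rose from 12794, 15423 and 13683 CPM to 36548, 52136 and 30814 CPM (log2 fold change 1.51 ± 0.26, adjusted p = 0.000361). miR-382-5p rose from 5370, 5205 and 5256 CPM to 16400, 20495 and 14494 CPM (log2 fold change 1.70 ± 0.34, adjusted p = 0.00166). For both, E10.5 replicate 2 was the highest library and the 3 E8.5 libraries lay close together.

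The other 3 calls of the locus did not hold in every leave-one-out fit. miR-409-3p rose from 11270 to 15158 CPM to 24571 to 31900 CPM (adjusted p = 0.0219), miR-370-3p from 4059 to 5229 CPM to 10833 to 15380 CPM (adjusted p = 0.0187) and miR-433-3p from 1210 to 2492 CPM to 3465 to 11906 CPM (adjusted p = 0.0451). Each of these calls was lost without any 1 of the E8.5 libraries or without E10.5 replicate 2, at adjusted p of 0.0842 to 0.119, 0.0889 to 0.119 and 0.0936 to 0.252. miR-541-5p, at 10441 to 12670 CPM and then at 14909 to 21126 CPM, did not pass the test (adjusted p = 0.300). Neighbours on the same strand within 10 kb of each other formed 31 groups with at least 2 tested hairpins over the genome. Of these 11 held a called entry. The 31 groups held 237 tested entries, and over all entries tested 8.58% were called. No group held calls in both directions, but groups with only 1 called entry could not do so. A precursor and its own arm also counted as separate entries.

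Some abundant miRNAs did not pass the test at all. The miR-26 and miR-30 families held 5.86% ± 0.37 of counts at E8.5 and 5.66% ± 0.35 at E10.5 (SD, n = 3), and none of 7 members tested was called. miR-26a-5p was at 20276, 18131 and 19643 CPM and then at 18333, 18793 and 17966 CPM, a difference of −0.08 ± 0.26 on the log2 scale (adjusted p = 0.912). The Sfmbt2 intronic cluster, a rodent-specific repeat of near-identical hairpins, had no call among 20 tested and a median log2 fold change of −0.81. Some of its entries hold the same counts as each other, so reads of such copies could not be separated. The miR-130 family had no call among 2 tested. Over all entries tested 8.58% were called, so the absence of calls does not set these lists apart.

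**Figure D4:**
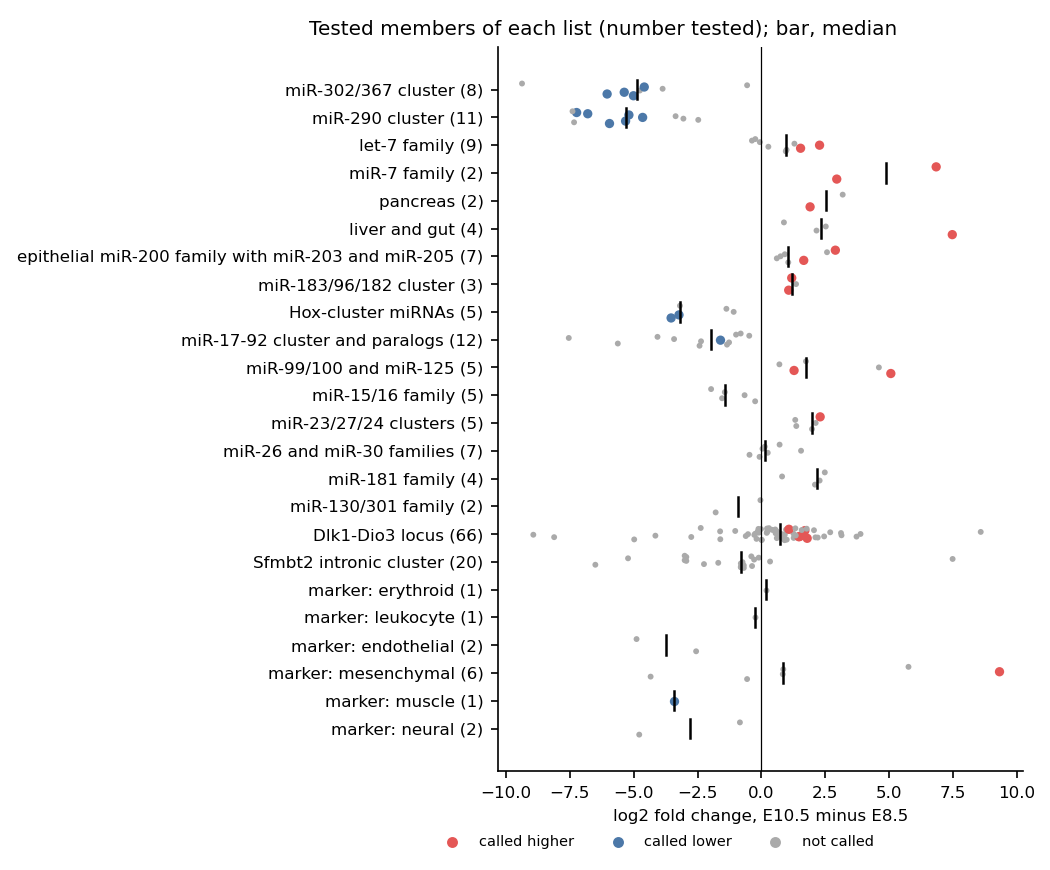
Log2 fold change (x axis, E10.5 minus E8.5) of each tested member of the 24 lists, with the number tested in parentheses and the median as a bar. The miR-302, miR-290, Hox-cluster and miR-17-92 points lie left of 0 and the miR-7, miR-183 and miR-23/27/24 points right of 0, with red and blue for members called higher and lower.

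A few rare entries moved from one side of detection to the other. miR-1224-5p, processed from an intron of Vwa5b2, was at 1.74, 5.20 and 0 CPM at E8.5 and at 1210, 1080 and 368 CPM at E10.5 (adjusted p = 0.00198). This is 3 counts against 535, a ratio of 465 (95% exact interval 158 to 2261, counting error only). miR-339-3p had no count at E8.5 and 3.83, 441 and 325 CPM at E10.5, at least 117-fold higher against the floor of 3 counts over the stage (adjusted p = 0.0451). Its call was lost in every leave-one-out fit but that without E10.5 replicate 1 (adjusted p = 0.0541 to 0.168) and in 3 of 10 other settings (adjusted p = 0.00254 to 0.0687 over the 10). In the other direction miR-135b-5p had 1227 counts at E8.5 and 1 at E10.5, a ratio of 471 (95% exact interval 84.3 to 18611). It was called (adjusted p = 0.0118) but not without E8.5 replicate 1 (adjusted p = 0.0555) or E10.5 replicate 1 (adjusted p = 0.0701). miR-362-5p, with 292 counts against 1, was called at an adjusted p of 0.0489 and lost in all 6 leave-one-out fits (adjusted p = 0.0603 to 0.137) and in 4 of 10 other settings (adjusted p = 0.0228 to 0.0818 over the 10). The precursor mir-149, from an intron of Gpc1, was at 153, 197 and 221 CPM at E8.5 and at 0 in all E10.5 libraries, at least 40.4-fold lower (adjusted p = 0.0451, lost in all 6 leave-one-out fits at 0.0936 to 0.132). Its mature arms miR-149-5p and miR-149-3p were not called.

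Mature entries summed by seed gave 308 families tested, of which 36 were called (11.7%), 22 higher at E10.5 (7.14%) and 14 lower (4.55%). The stages did not overlap in 115 (37.3%). The miR-92a family AUUGCAC, with miR-25, miR-363 and miR-367 among its 6 entries, held 30.2% ± 2.1 of mature counts at E8.5 and 9.47% ± 1.42 at E10.5 (SD, n = 3) and fell by 1.52 ± 0.18 on the log2 scale (adjusted p = 4.09e-07). The family AAUACUG, the sum of miR-200b-3p, miR-200c-3p and miR-429-3p, rose by 1.09 ± 0.29 (adjusted p = 0.0104, up to 0.138 without E10.5 replicate 1 or 3). Some families were called although no member was called singly, such as the miR-181 family. Another of these, GGCAAGA of miR-31-5p alone, whose single entry missed the threshold among all entries, rose by 3.51 ± 1.12 (adjusted p = 0.0352), a call lost without E8.5 replicate 2 or 3 or E10.5 replicate 2 (adjusted p up to 0.196). The miR-30c 3p arms (UGGGAGA) had counts of 1 over the E10.5 libraries (adjusted p = 0.0306, lost in all 6 leave-one-out fits). The family AUCAGGG joins miR-465a-3p, miR-465b-3p and miR-465c-3p, which hold identical counts, so the same reads entered it 3 times. Its call (adjusted p = 0.0151) was lost without E8.5 replicate 3 (adjusted p = 0.277).

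The 5p and 3p arms of a hairpin were compared by the share of the 5p arm. Among 47 hairpins with at least 100 counts over both arms in each of the 6 libraries, the 5p share did not overlap between stages in 9 (19.1%). The stage means differed by under 10 percentage points in 41, with a median size of 1.04 points. Hairpins with nearly all counts on 1 arm could differ little and lower this median. Among them miR-122, miR-134, miR-21a and miR-26b were at 100% 5p in every library. The largest differences without overlap were in hairpins of the Dlk1-Dio3 locus and miR-335. The 5p share of miR-485 was 61.8%, 55.6% and 51.6% at E8.5 and 46.5%, 30.8% and 32.2% at E10.5, so that the more abundant arm changed from 5p to 3p. That of miR-411 went from 64.5%, 71.2% and 77.6% to 83.2%, 91.5% and 85.7%. That of miR-335 went from 29.4%, 28.6% and 18.8% to 49.9%, 32.7% and 32.4%, and that of miR-369 from 17.1%, 13.2% and 11.2% to 22.3%, 20.7% and 35.8%. These shares are descriptions without a test.

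**Figure D5:**
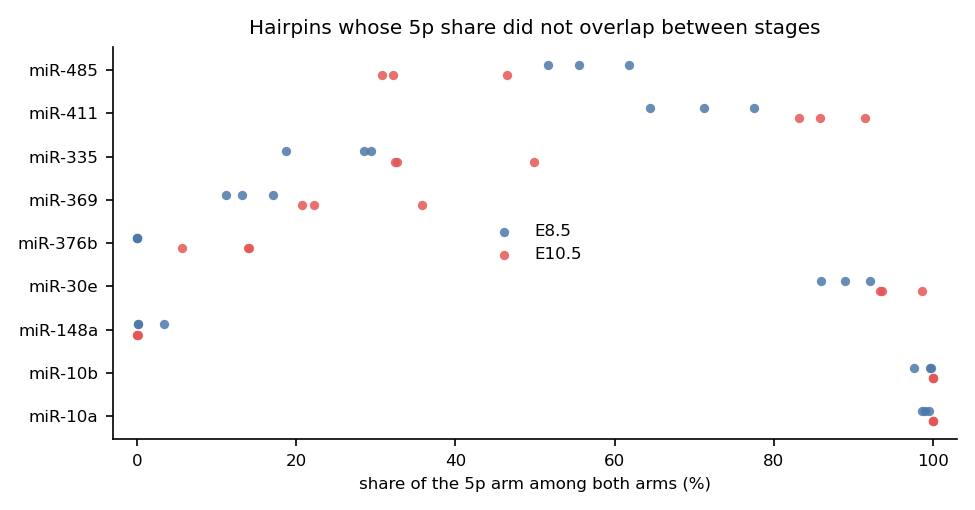
Share of the 5p arm among both arms (x axis, %) in each library for the 9 hairpins in which the 3 E8.5 libraries (blue) and the 3 E10.5 libraries (red) did not overlap. The points of miR-485 move to the left at E10.5 and those of miR-411, miR-335 and miR-369 to the right.

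Markers of other cell types were counted beside these results. miR-1a-3p, the cardiac and skeletal muscle miRNA, was at 26557, 15647 and 6319 CPM at E8.5 and at 739, 268 and 3539 CPM at E10.5, and fell by 3.41 ± 0.82 on the log2 scale (adjusted p = 0.00930). The muscle list summed to 6324 to 26795 CPM and then to 268 to 3543 CPM, nearly all of it miR-1a-3p, since miR-133a-3p, its usual companion, was at 130, 2.60 and 1.45 CPM at E8.5 and at 0 at E10.5. The endothelial miR-126a arms summed to 1832 to 2295 CPM and then to 241 to 432 CPM without overlap, where 36.6% of all entries tested did not overlap. Neither of the 2 was called (adjusted p = 0.133 for miR-126a-3p). Of the mesenchymal list 1 of 6 tested members was called (16.7%, against 8.58% of all entries tested). This was miR-199a-5p, at 0 in all E8.5 libraries and at 280, 0 and 314 CPM at E10.5 (adjusted p = 0.0219, and 0.0936 to 0.129 without any 1 of the E8.5 libraries). That list summed to 7332 to 13845 CPM and then to 3776 to 13612 CPM, most of it miR-143-3p. Erythroid, leukocyte and neural lists summed to at most 839 CPM in any library with no call among 4 members tested, and miR-451a, miR-142a-5p and miR-223-3p were at 0 or at most 78.4 CPM. Muscle and endothelial sums were thus higher at E8.5 together with the miRNAs that fell, and their part in those results was not tested.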

How the data were processed

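Small RNA from sorted cells was made into NEXTflex libraries and sequenced by the authors, who trimmed the adapter and the 4 random bases and counted reads per miRNA with COMPSRA on mm10. The submitters' processing notes also name GRCm39, and the table holds no coordinates. The random bases were not used as molecular identifiers, so intervals cover counting error only. The deposited values are raw counts per miRNA entry, not normalized. Reads of 17 to 35 bases were kept in 10 libraries and of 17 to 36 in 2, 1 of them among those compared. Groups came from the sample titles.

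Counts of all 12 libraries were fitted in 1 edgeR model (version 4.0.16, R 4.3.3) by stage, with TMM scaling, filterByExpr (minimum count 10, minimum total 15) and the quasi-likelihood test of E10.5 against E8.5, and p-values were Benjamini-Hochberg adjusted over all entries tested. Standard errors are the log2 fold change divided by the square root of F. The model was tested on simulated data with known changes. Mature entries were also summed by seed. RefSeq sequences on GRCm38.p6 matched 541 of 633 mature entries, and the 92 without one (miR-375-3p and miR-302a-3p among them) stayed single. Gene locations came from GENCODE vM21. Alternatives were RLE scaling, library size alone, other filters, DESeq2 1.42.0, limma voom 3.58.1, fewer libraries, thinning to 133435 counts, a replicate block, omitted entries and leaving out each library.

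Named entries were, by rule, the 12 mature and 4 precursor entries each way with the largest fold size among those called, not overlapping and at 100 CPM or more in the higher stage, the 10 most abundant mature entries per stage, up to 4 members per list by level, every tested member of 4 lists (miR-7, let-7 and the miR-302 and miR-290 clusters), 6 seed families each way and 4 hairpins by arm share. Other called entries named, the motif search and genomic neighbours were chosen after values were seen. Members and lists were chosen with earlier results of these data known.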

Additional observations from a re-analysis of the deposited data

How the results depend on the processing

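With all libraries 49 entries were called, 25 higher and 24 lower. With at least 10 counts in each of the 6 libraries the calls were 31 (17 higher, 14 lower) of 193 tested, with DESeq2 116 (52 and 64), with limma voom 108 (39 and 69), with only the 6 libraries 100 (37 and 63) and without E9.5 89 (45 and 44). The seed calls were 36 (22 higher, 14 lower), and 13 were higher with at least 10 counts in each library. They were 61 with DESeq2 (29 lower) and 64 with limma voom (35 lower), and 28 were lower with only the 6 libraries and 22 without E9.5. Hairpins whose arm shares did not overlap numbered 14 of 75 at 30 counts or more. Leave-one-out fits gave 27 to 40 entries (15 to 25 higher, 12 to 18 lower), 22 to 30 seed families (15 to 18 higher, 7 to 15 lower) and 9 to 16 hairpins, 16 without E10.5 replicate 3. Same-numbered libraries did not deviate together (correlations −0.007, 0.013 and 0.053). With 3 libraries a stage this cannot settle whether the numbers paired them. The fit with a replicate block called 41 entries and 36 seed families. Of the 49 called entries 36 were called in every setting that tested them apart from leave-one-out, 25 in all 6 leave-one-out fits and 10 in none of these, and none changed sign. Besides the entries whose lost calls are given with their values above, let-7c-5p, miR-183-5p, miR-290a-5p, miR-291a-5p, miR-370-3p, miR-409-3p, miR-433-3p, mir-149 and mir-295 each lost the call in 1 to 3 settings (adjusted p up to 0.107), and DESeq2 gave mir-302a and miR-362-5p no adjusted p. RLE scaling moved the median log2 fold change by 0.11 and library size alone by −0.15. Entries that were not called changed sign as follows. RLE scaling gave let-7g-5p 0.0631, miR-130b-3p 0.18 and miR-26a-5p 0.0572, and DESeq2 gave 0.0631, 0.17 and 0.0570. Library size alone gave miR-30d-5p −0.0127. At least 10 counts in each library gave miR-30a-5p −0.0466, miR-30d-5p −0.17 and miR-486a-5p −0.10. limma voom gave miR-98-5p 2.48, and the replicate block miR-181c-5p −0.43. Without E9.5, miR-130b-3p was at 0.0849 and miR-26a-5p at 0.00056. Thinning gave miR-130b-3p 0.0772 and miR-155-5p 0.27, and mature entries only gave miR-130b-3p 0.0660. Leave-one-out ranges were −1.21 to 0.57 for let-7g-5p, −0.80 to 0.52 for miR-130b-3p, −0.17 to 0.0276 for miR-26a-5p, −1.31 to 0.60 for miR-155-5p, −1.81 to 6.46 for miR-98-5p, −1.45 to 0.86 for let-7d-5p, −3.90 to 0.20 for let-7i-5p, −0.51 to 0.83 for miR-486a-5p, −4.96 to 7.03 for miR-192-5p, −5.85 to 0.0453 for miR-302d-5p, −2.72 to 2.13 for miR-181c-5p and −0.20 to 1.31 for miR-199a-3p. The cause of these changes was not tested. At this depth no entry under 100 CPM in the higher stage was called.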
